A study of Mus musculus with 12 samples.

Results

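The 10 genes described here, S100a8, S100a9, Retnlg, Cxcr2, Csf3r, Clec4d, Ly6g, Mmp8, Mmp9 and Il1b, are a fixed list of transcripts that are abundant in neutrophils. They were taken by symbol from a table of 55487 genes counted by RNA sequencing in mouse kidney cortex, and each symbol was found on 1 row. The study asked how loss of augmenter of liver regeneration (ALR, gene symbol Gfer) in the kidney tubule alters acute injury after ischemia–reperfusion (I/R). Sequencing covered 4 groups of 3 libraries, sham-operated Ctrl and PT-KO mice and the same genotypes after I/R, called injured Ctrl and injured PT-KO here. Both Ctrl groups came from mice labelled WT, which per the study's methods carried floxed ALR alleles without Cre (ALR flox/flox). Both PT-KO groups came from mice labelled ALR knockdown, which per the methods were ALR flox/flox with Ggt1-Cre, which drives recombination in proximal tubule cells and is not meant to act in leukocytes or vessels. Injured mice had both kidneys clamped for 22 min and were sampled after 24 h of reperfusion. All groups shared the floxed allele, a C57BL/6 background and an age of 6 to 8 weeks. The libraries are treated as separate mice, although the labels do not say so, and p-values measure the spread between these libraries.

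Neutrophils are short-lived granulocytes made in the bone marrow. They enter the kidney within hours of reperfusion, drawn by CXC chemokines that CXCR2 senses, and they carry preformed granules of proteases and a cytosol rich in the calcium-binding pair S100A8 and S100A9. In whole tissue, fewer cells of a type and less RNA per cell cannot be told apart. A count of these transcripts is therefore not a count of neutrophils, and several of the genes, among them Il1b, Mmp9, Csf3r and Clec4d, are also used by monocytes and macrophages.

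The libraries held 12165089 to 23123693 counted reads, and 1 read was worth 0.0445 to 0.0856 CPM (counts per 1000000 reads, scaled with the trimmed mean of M-values). Most members were near the detection limit in sham kidneys, so their fold changes rest on few reads. Gfer itself was not lower in the libraries labelled ALR knockdown, at 14.0 ± 3.68 CPM in PT-KO against 12.8 ± 1.52 CPM in Ctrl (SD, n = 3 each; edgeR quasi-likelihood test, log2 fold change 0.13, adjusted p = 0.76). After I/R it was at 22.0 ± 0.674 CPM in injured PT-KO, above each library of injured Ctrl at 17.6 ± 2.34 CPM, and did not pass (0.32, adjusted p = 0.072). The study reported decreased ALR expression in kidneys of PT-KO mice. Whether whole-gene counts of cortex can show an exon deletion in 1 cell type was not tested here. The groups are therefore named by their labels. The injury markers Havcr1 (KIM-1) and Lcn2 (NGAL) were higher in both I/R groups, with mean levels of 1092 and 286 CPM in injured Ctrl and of 3141 and 1544 CPM in injured PT-KO, against 1.16 to 2.70 CPM in the sham groups. From Xist and Y-linked reads, Ctrl libraries 1 and 2 came from female mice and the other 10 libraries from males. The number of Ctrl library 3 matches no sample title, so that library is known by its group alone.

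The promoters of 4 members are shown because these genes gave the highest levels or the clearest differences after injury. The RefSeq windows on GRCm38.p6, the same build as mm10, run from 250 bases before to 50 bases after the annotated start, on the strand of the gene, 5′ to 3′. Capitals mark matches on either strand to 3 strings of letters. The first is TATAAA, the core promoter element bound by the general transcription machinery. The second is AGGAAGT, a string within many binding sites of PU.1, the ETS factor of myeloid cells. The third is TTGCNNAA, found in sites of the C/EBP factors of granulocytes. No match overlaps another in these windows. They are S100a8 (chr3:90668821-90669120, plus strand), S100a9 (chr3:90695672-90695971, minus strand), Mmp8 (chr9:7558179-7558478, plus strand) and Retnlg (chr16:48872358-48872657, plus strand).
S100a8: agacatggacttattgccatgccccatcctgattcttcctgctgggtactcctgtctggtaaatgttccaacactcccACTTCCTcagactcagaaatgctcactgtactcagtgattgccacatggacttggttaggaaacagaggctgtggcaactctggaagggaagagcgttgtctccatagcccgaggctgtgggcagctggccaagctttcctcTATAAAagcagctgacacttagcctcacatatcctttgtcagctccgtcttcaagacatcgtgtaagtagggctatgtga
S100a9: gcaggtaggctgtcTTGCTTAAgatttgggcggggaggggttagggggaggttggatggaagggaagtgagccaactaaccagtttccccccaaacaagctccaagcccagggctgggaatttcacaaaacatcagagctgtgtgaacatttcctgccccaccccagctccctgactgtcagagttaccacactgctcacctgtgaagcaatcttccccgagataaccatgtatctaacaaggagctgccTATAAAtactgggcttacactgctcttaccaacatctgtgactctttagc
Mmp8: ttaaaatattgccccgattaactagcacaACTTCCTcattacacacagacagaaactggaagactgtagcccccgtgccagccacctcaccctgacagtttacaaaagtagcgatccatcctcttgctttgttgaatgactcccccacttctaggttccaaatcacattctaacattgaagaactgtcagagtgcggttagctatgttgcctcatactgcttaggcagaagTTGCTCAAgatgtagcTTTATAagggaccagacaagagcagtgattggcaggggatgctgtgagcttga
Retnlg: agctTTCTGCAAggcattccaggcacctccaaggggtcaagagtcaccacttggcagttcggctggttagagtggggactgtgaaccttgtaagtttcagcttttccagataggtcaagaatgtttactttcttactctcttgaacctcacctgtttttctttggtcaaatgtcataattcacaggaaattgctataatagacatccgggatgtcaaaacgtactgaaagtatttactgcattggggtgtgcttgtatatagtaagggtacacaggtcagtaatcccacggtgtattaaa

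RefSeq windows were found for 9 of the 10 members, all but Mmp9. The TATA box was found in 5 of the 9 windows and in 13.6% of 32851 windows of that length, the PU.1 core in 3 of 9 and in 9.35%, and the C/EBP core in 4 of 9 and in 10.8%. In the S100a8 window the TATA box begins 30 bases before the start and the PU.1 core 172 bases before it. The S100a9 window has its TATA box on the annotated start itself and a C/EBP core 236 bases upstream. Mmp8 and Ly6g held matches to each of the 3 motifs, whereas Retnlg held a C/EBP core alone, 246 bases upstream. Cxcr2, Csf3r and Clec4d held none of these letters within the window. A match is a string of letters and not a measured binding site.

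**Figure D1:**
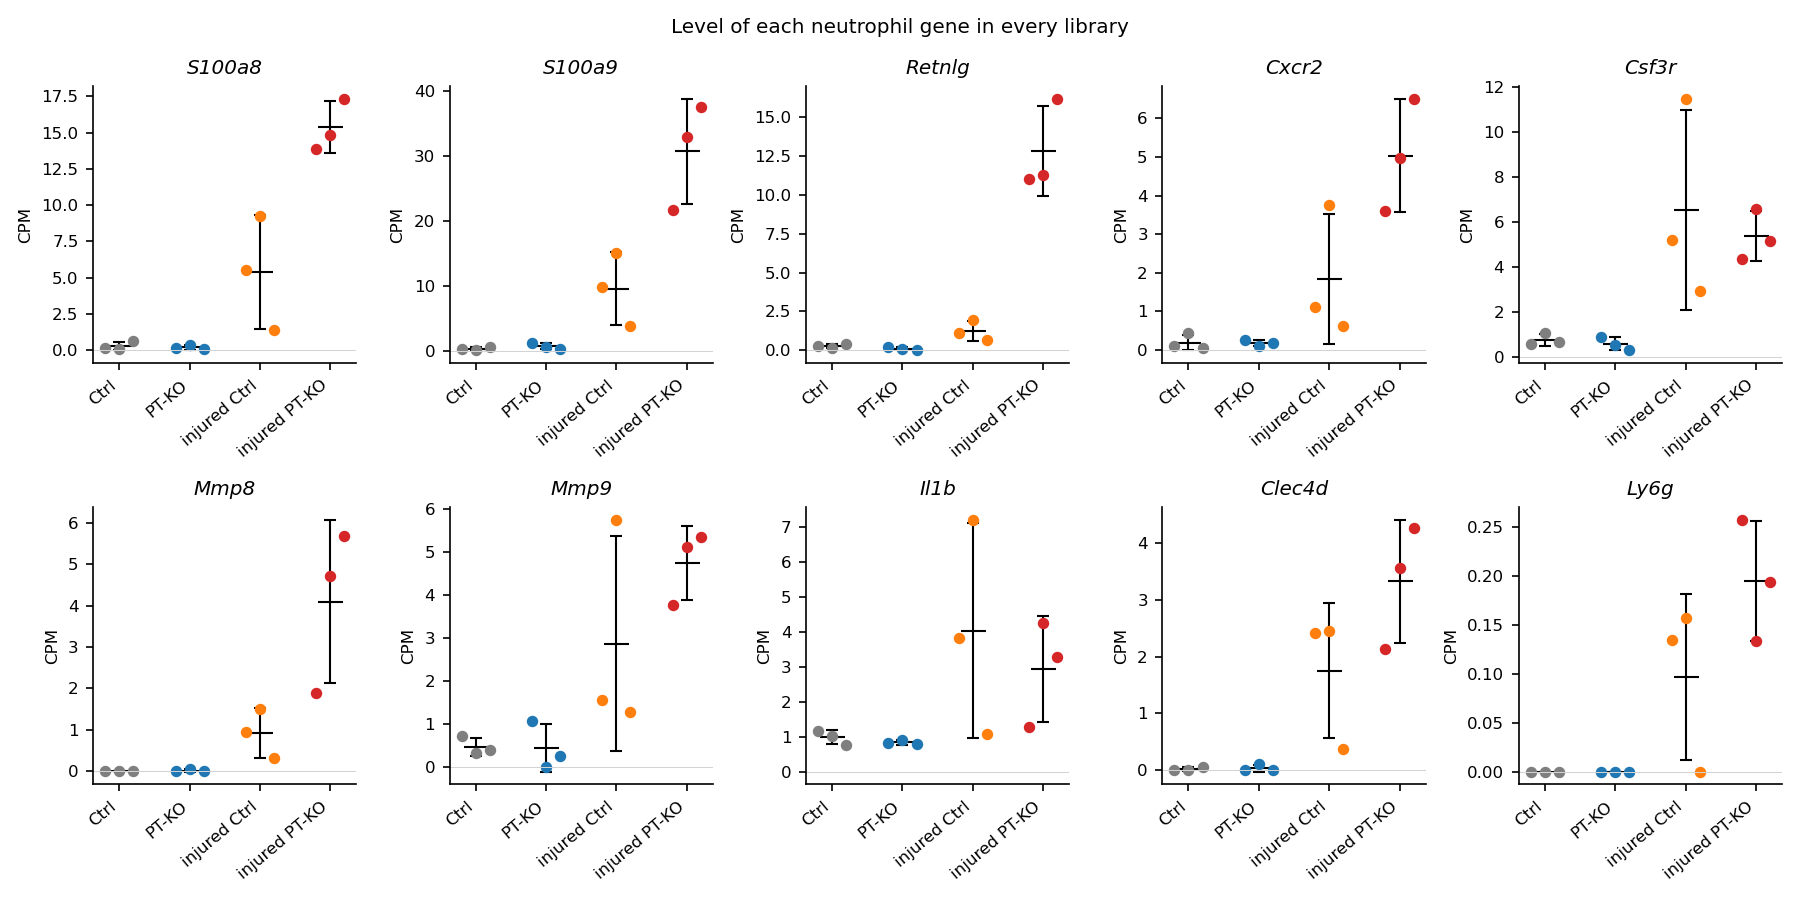
Level of each of the 10 neutrophil genes in CPM (vertical axis, linear, own scale for each gene) in the 4 groups, with 1 point for each library and the mean ± SD of 3 libraries in black. S100a8, S100a9, Retnlg and Mmp8 were higher in every injured PT-KO library than in any injured Ctrl library, while Csf3r, Mmp9 and Il1b had their highest value in an injured Ctrl library.

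S100a8 and S100a9 encode the subunits of calprotectin, an alarmin that makes up much of the neutrophil cytosol and signals through TLR4 and RAGE. They are neighbours on chromosome 3 (mm10), S100a8 at chr3:90668978-90670035 on the plus strand and S100a9 at chr3:90692632-90695721 on the minus strand, with 22596 bp between them. S100a8 stood at 0.151, 0.0612 and 0.610 CPM in Ctrl and at 0.126, 0.377 and 0.0614 CPM in PT-KO. After I/R it stood at 5.49, 9.24 and 1.39 CPM in injured Ctrl libraries 1, 2 and 4, and at 13.9, 14.9 and 17.3 CPM in injured PT-KO libraries 2, 3 and 4. The 4 groups thus fell into a low sham range and 2 injured ranges that did not overlap. S100a9 stood at 0.352, 0.122 and 0.610 CPM in Ctrl and at 1.26, 0.592 and 0.368 CPM in PT-KO. Its injured levels were 9.91, 15.0 and 3.86 CPM in injured Ctrl and 21.6, 32.9 and 37.4 CPM in injured PT-KO. Again every injured PT-KO library lay above every injured Ctrl library, and injured Ctrl library 4 was the lowest of the 6.

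Retnlg encodes resistin-like molecule gamma, a secreted protein of granulocytes. It lies at chr16:48872621-48874496. Ctrl libraries had 0.302, 0.122 and 0.388 CPM and PT-KO libraries 0.189, 0.108 and 0 CPM, or 15 and 5 reads in all. In injured Ctrl it reached 1.12, 1.93 and 0.696 CPM, and in injured PT-KO 11.0, 11.3 and 16.2 CPM. The lowest injured PT-KO library was thus well above the highest injured Ctrl library, a wider gap than for any other member.

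Among the receptors, Cxcr2 (chr1:74153989-74161246) senses CXCL1 and CXCL2 and calls neutrophils out of the marrow and into tissue. It was at 0.101, 0.428 and 0.0554 CPM in Ctrl and at 0.252, 0.108 and 0.184 CPM in PT-KO. I/R brought it to 1.12, 3.76 and 0.632 CPM in injured Ctrl and to 3.59, 4.99 and 6.51 CPM in injured PT-KO, where the lowest library fell just under the highest of injured Ctrl. Csf3r (chr4:126024550-126044440), the receptor of granulocyte colony-stimulating factor, had the opposite spread. Its levels were 5.18, 11.5 and 2.91 CPM in injured Ctrl and 4.36, 6.59 and 5.16 CPM in injured PT-KO, from 0.553 to 1.04 CPM in Ctrl and 0.307 to 0.883 CPM in PT-KO. The injured PT-KO range lay inside the injured Ctrl range. Clec4d (chr6:123262111-123275265), a C-type lectin receptor for fungal and mycobacterial glycans, had 1 read in Ctrl and 2 in PT-KO, and ranged from 0.379 to 2.45 CPM in injured Ctrl and from 2.14 to 4.26 CPM in injured PT-KO. Ly6g (chr15:75155240-75159126), the surface antigen used to gate mouse neutrophils, had no read in the 6 sham libraries, 3, 3 and 0 reads in injured Ctrl and 3 reads in each injured PT-KO library. In sham libraries a count of 0 allows 0.151 to 0.189 CPM (3 reads, for counting error only), which is within the injured range of 0 to 0.257 CPM, so single libraries cannot be set apart for Ly6g. Reads of its close Ly6 relatives may also be shared with it.

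Of the proteases, Mmp8 (chr9:7558456-7568485) encodes neutrophil collagenase, stored in specific granules. No Ctrl library and 1 read in PT-KO held it, after which it stood at 0.938, 1.51 and 0.316 CPM in injured Ctrl and at 1.88, 4.72 and 5.67 CPM in injured PT-KO. These injured ranges did not overlap. Mmp9 (chr2:164940780-164955850), gelatinase B, ranged from 0.306 to 0.704 CPM in Ctrl, 0 to 1.07 CPM in PT-KO, 1.26 to 5.74 CPM in injured Ctrl and 3.77 to 5.35 CPM in injured PT-KO. Here the highest value of all was that of injured Ctrl library 2. Il1b (chr2:129364570-129371139), the precursor of the cytokine interleukin-1 beta, was at 1.16, 1.04 and 0.776 CPM in Ctrl and 0.820, 0.915 and 0.798 CPM in PT-KO. It reached 3.84, 7.21 and 1.08 CPM in injured Ctrl and 1.28, 4.27 and 3.29 CPM in injured PT-KO. Injured Ctrl library 4 lay within the sham range for Il1b, which no other injured library did. The antisense gene Il1bos overlaps exons of Il1b and had 0 to 8 reads a library, and because the strand of the counting is not given in the sources used here, reads of the pair may be mixed.

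Levels of the members were ordered per kilobase (kb) of exon. In injured PT-KO the order began with S100a9 at 58.7 ± 15.5 CPM per kb (SD, n = 3), followed by S100a8 at 22.1 ± 2.58 and Retnlg at 21.6 ± 4.91 CPM per kb. S100a9 lay above the other two in every library, whereas the ranges of S100a8 and Retnlg overlapped. The remaining 7 members lay between 0.207 (Ly6g) and 2.08 (Clec4d) CPM per kb, and Clec4d, Mmp8, Cxcr2, Il1b, Csf3r and Mmp9 differed from their neighbours by less than their spread. In injured Ctrl the order was S100a9 at 18.4 ± 10.7, S100a8 at 7.75 ± 5.66, and then Il1b at 2.12 ± 1.61, Retnlg at 2.10 ± 1.06 and Csf3r at 1.81 ± 1.23 CPM per kb, 3 genes that could not be told apart.

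In control kidneys 6 of the 10 members rose with I/R, and how many did so depended on single libraries. Of the 10, 7 had enough reads to be tested in injured Ctrl against Ctrl, and the 6 passed as higher (edgeR quasi-likelihood test, Benjamini–Hochberg adjusted p under 0.05 over 15567 genes), where 11.4% of all genes tested were higher and 19.4% were called in either direction. The log2 fold change was 4.69 (SE 0.65, adjusted p = 0.0083) for S100a9, 4.26 (SE 0.87, adjusted p = 0.021) for S100a8 and 3.26 (SE 0.90, adjusted p = 0.044) for Cxcr2. Csf3r followed with 3.12 (SE 0.56, adjusted p = 0.015), Mmp9 with 2.58 (SE 0.69, adjusted p = 0.040) and Retnlg with 2.17 (SE 0.55, adjusted p = 0.035). Il1b, at 2.03 (SE 0.62, adjusted p = 0.058), did not pass. Members with no or almost no sham reads were compared by their reads: Mmp8 was at least 17.4-fold higher (55 reads against 0, with 3 reads over the group as the floor), Clec4d had a ratio of 101 (exact 95% counting interval 17.8 to 4037; 107 reads against 1) and Ly6g was at least 1.89-fold higher (6 reads against 0), bounds that carry no interval for the error of the injured reads. Without overlap between the groups, 8 of 10 members were higher in injured Ctrl, among them the 6 that passed, and Il1b and Ly6g overlapped. Mmp8 and Clec4d, also among the 8, were untested, whereas the share of 21.3% for all genes covers only the 15567 genes tested. Sham reads of most members were so few that passing the read filter rested largely on the injured libraries, so the count of tested members is no count of all members. Clec4d, with 107 reads in injured Ctrl, was left out by the filter, whereas Retnlg, with 73 reads there, was tested.

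Without Ctrl library 1 or Ctrl library 2 only S100a9 passed, without injured Ctrl library 1 or 2 the number passing was 2 and 3, without Ctrl library 3 it was 5, and without injured Ctrl library 4 it was 9. Over all genes, 379 were called without Ctrl library 1 and 413 without Ctrl library 2, in place of 3019, so the loss was not particular to the members. With DESeq2 or library totals 7 members passed (4046 and 3112 genes). With no read filter or in a fit to all 12 libraries 9 passed (3372 and 4938 genes). With sex as a covariate in a fit to all 12 libraries (2 of the 3 sham Ctrl libraries came from females, all injured ones from males), 4 members passed, where 2029 of 16168 genes were called and 1066 of them were higher, and log2 fold changes were 3.97 for S100a9 (adjusted p = 0.019), 3.14 for S100a8 (adjusted p = 0.049), 4.89 for Cxcr2 (adjusted p = 0.047) and 3.29 for Csf3r (adjusted p = 0.029). Markers of other cells moved in this comparison too. All 7 pan-leukocyte genes and 7 of 11 macrophage markers tested were higher (2 to 7 and 1 to 8 with 1 library left out), and 3 of 8 proximal tubule markers were lower (0 to 7), where 11.4% and 7.97% of all genes were higher and lower. The summed level of the macrophage markers went from 88.6 to 116 CPM in Ctrl to 129.7 to 224 CPM in injured Ctrl. Their part in the rise of the members was not tested.

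In the same comparison in knockout kidneys, injured PT-KO against PT-KO, 9 of the 10 members were tested and these 9 passed as higher, where 32.9% of 15155 genes were higher and 65.5% were called in either direction. Members with few sham reads, among them Mmp8, Clec4d and Retnlg, entered the test through the injured libraries, so the read filter could favour a high count among those tested. With no filter 10 members were called as higher, where 10699 of 27016 genes were called and 5425 of them were higher. Retnlg rose by a log2 fold change of 6.91 (SE 0.43, adjusted p = 6.4e-07), S100a8 by 6.23 (SE 0.35, adjusted p = 3.0e-07) and S100a9 by 5.37 (SE 0.34, adjusted p = 6.8e-07). Cxcr2 rose by 4.76 (SE 0.41), Mmp9 by 3.47 (SE 0.68), Csf3r by 3.22 (SE 0.36) and Il1b by 1.82 (SE 0.43), with adjusted p between 5.1e-06 and 0.0038. Mmp8 had a ratio of 221 (counting interval 39.2 to 8753; 216 reads against 1), Clec4d one of 87.3 (23.8 to 727; 171 reads against 2), and Ly6g, untested, was at least 3.06-fold higher (9 reads against 0). The 9 members tested were higher in injured PT-KO without overlap between the groups, as were 35.9% of the 15155 genes tested. For Ly6g, single libraries cannot be set apart, as said above. Leaving out any 1 library kept 9 members past the threshold. Of the markers of other cells, 1 of 11 macrophage markers tested was higher and 6 were lower, 2 of 7 pan-leukocyte genes were higher and 3 lower, and all 8 proximal tubule markers were lower, where 32.7% of all genes were lower. The summed level of the macrophage markers was 95.6 to 98.7 CPM in PT-KO and 61.6 to 71.2 CPM in injured PT-KO. The part of these shifts in the rise of the members was not tested.

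**Figure D2:**
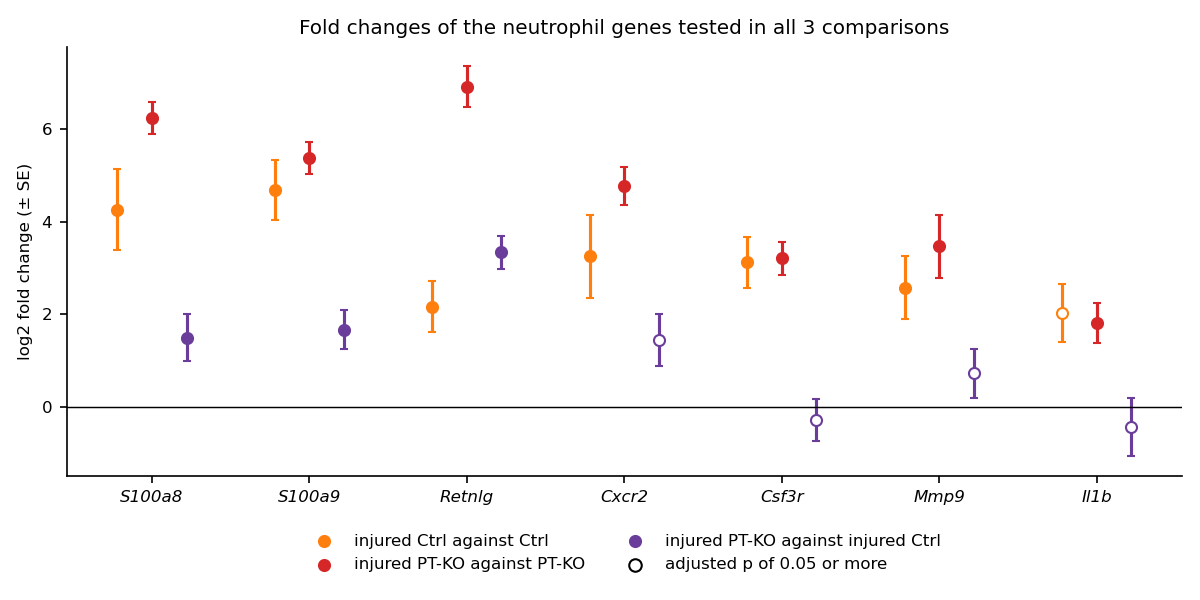
Log2 fold change ± SE (vertical axis) from edgeR for the 7 neutrophil genes tested in all 3 comparisons that involve I/R, with filled points for adjusted p under 0.05. The estimates for I/R lay above 0 for all 7 in both genotypes, with only Il1b in Ctrl mice short of the threshold, and between the injured groups Retnlg lay farthest above 0 while Csf3r and Il1b lay just below it.

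Injured knockout and injured control kidneys differed in part of the list. In injured PT-KO against injured Ctrl, 9 members were tested and 4 passed as higher, where 22.5% of 15281 genes were higher and 46.9% were called in either direction. All 6 libraries came from males. The 4 were the calprotectin pair, resistin-like molecule gamma and neutrophil collagenase. The read filter had left out Mmp8 and Clec4d in injured Ctrl against Ctrl. Both passed it here through the injured PT-KO libraries, where Mmp8 was higher, so the count called depends in part on the filter. With no filter 5 members passed as higher, where 3367 of 26960 genes were higher. Retnlg differed most, with a log2 fold change of 3.34 (SE 0.35, adjusted p = 4.2e-04), ahead of Mmp8 at 2.13 (SE 0.56, adjusted p = 0.016), S100a9 at 1.67 (SE 0.42, adjusted p = 0.013) and S100a8 at 1.50 (SE 0.50, adjusted p = 0.039). The 4 genes that passed with the filter were the ones whose groups did not overlap, as was true of 29.6% of all genes tested in this direction.

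Receptors, gelatinase and cytokine did not pass. Cxcr2 had a log2 fold change of 1.45 (SE 0.57, adjusted p = 0.067), Clec4d 0.91 (SE 0.57, adjusted p = 0.22) and Mmp9 0.74 (SE 0.53, adjusted p = 0.28). Csf3r, at -0.27 (SE 0.44, adjusted p = 0.64), and Il1b, at -0.43 (SE 0.63, adjusted p = 0.60), had estimates on the other side of 0, and both turned positive without injured Ctrl library 2 (0.39 and 0.25). Ly6g was not tested. These intervals are wide and do not show that the genes were equal between the groups. The injured libraries of this comparison are the same as those compared with sham.

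Here too 1 library could change a call. Retnlg passed without any 1 library, S100a9 was lost without injured PT-KO library 4, Mmp8 without injured Ctrl library 1 or injured PT-KO library 3 or 4, and S100a8 without injured Ctrl library 1 or any injured PT-KO library, and the number passing ranged from 1 (without injured PT-KO library 4) to 6 (without injured Ctrl library 2). Scaling by library totals, which moved the median of all genes to -0.21 and the split of calls from 3444 higher and 3725 lower to 1978 and 5080, left 3 members past the threshold, with S100a8 at 1.28 (adjusted p = 0.068).

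The spread in injured Ctrl was ordered by library. All 10 members were highest in injured Ctrl library 2 and lowest in library 4, with ratios between the 2 libraries of 2.78 (Retnlg) to 6.70 (Il1b) for the 9 members with reads in both. Havcr1 and Lcn2 were also highest and lowest in these libraries, with ratios of 5.53 and 2.83, whereas Ptprc, a gene of all leukocytes, was highest in library 1 and lowest in library 4. In injured PT-KO, 9 of 10 members were lowest in library 2, and ratios of highest to lowest ran from 1.25 (S100a8) to 3.33 (Il1b). There Havcr1 and Ptprc were lowest in library 2 as well, but Lcn2 was lowest in library 3. The part of injury depth in the difference between the genotypes was not tested.

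Without I/R, PT-KO and Ctrl kidneys could hardly be compared for these genes. Only Csf3r (log2 fold change -0.38, SE 0.46, adjusted p = 0.70) and Il1b (-0.23, SE 0.30, adjusted p = 0.72) had enough reads, and neither passed. By edgeR 0 of 2 members were called, with 0 at an unadjusted p under 0.05 and 0 by DESeq2. Over all 15291 genes tested, 0% were called by edgeR, 2573 genes had an unadjusted p under 0.05 and DESeq2 called 458. The 10 members summed to 3.12 to 3.55 CPM in Ctrl and 1.96 to 4.61 CPM in PT-KO.

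The effect of I/R differed between genotypes for 1 member. In the test of the knockout by I/R interaction over all 12 libraries, Retnlg had a log2 value of 4.76 (SE 0.88, adjusted p = 0.0022), and the other 8 members tested did not pass. Over all 16168 genes, 14.3% passed as higher and 30.6% in either direction, so the share of members that passed is no higher than that of all genes. S100a8 had an interaction of 1.98 (SE 1.24, adjusted p = 0.24), S100a9 of 0.69 (SE 0.93, adjusted p = 0.60) and Cxcr2 of 1.51 (SE 1.19, adjusted p = 0.36). Those of Mmp9, Csf3r and Il1b were 0.89, 0.10 and -0.20, each with an SE of 0.71 or more.

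Some members differed between the injured groups relative to the calprotectin pair. Set against the summed reads of S100a8 and S100a9 in the same library, a comparison that no scaling between libraries can move but that was chosen after the values were seen, Retnlg made 7.25, 7.97 and 13.3 reads per 100 in injured Ctrl, from the lowest to the highest, and 23.6, 29.6 and 31.1 in injured PT-KO. Csf3r went the other way, with 33.6 to 55.4 per 100 in injured Ctrl and 9.42 to 13.8 in injured PT-KO, as did Il1b with 20.5 to 29.7 and 3.61 to 8.95. Neither pair of ranges overlapped. The reference reads, S100a8 and S100a9, were themselves higher in injured PT-KO, whereas the levels of Csf3r and Il1b did not pass between these groups, and macrophages, whose markers were mostly lower in injured PT-KO (9 of 12, where 24.4% of all genes were lower), also express both genes. Cxcr2 (7.25 to 15.5 against 10.1 to 11.9), Mmp8 (6.02 to 6.25 against 5.30 to 10.4), Mmp9 (10.1 to 24.1 against 9.78 to 10.7) and Clec4d (7.23 to 15.7 against 6.02 to 7.77) overlapped. S100a9 kept a ratio to S100a8 of 1.62 to 2.77 in injured Ctrl and 1.56 to 2.21 in injured PT-KO. These are descriptions with no test, and the smallest p that an exact permutation test of 3 against 3 libraries allows is 0.1.

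The summed level of the members was higher in injured PT-KO than in injured Ctrl, whereas Ptprc was lower. Summed, the 10 members reached 12.5, 31.7 and 58.5 CPM in injured Ctrl and 63.8, 88.4 and 101 CPM in injured PT-KO. Of the difference of 50.3 CPM between the group means, S100a9, S100a8 and Retnlg made up 42.6 CPM. The other 7 members summed to 6.58, 15.2 and 32.3 CPM in injured Ctrl and to 17.3, 29.4 and 30.4 CPM in injured PT-KO, ranges that overlapped. Ptprc, the CD45 phosphatase of all leukocytes, averaged 14.3 ± 1.51 CPM (SD, n = 3) in sham Ctrl mice, 13.6 ± 2.30 in sham PT-KO mice, 30.4 ± 10.5 in injured Ctrl and 6.13 ± 0.353 in injured PT-KO, a log2 fold change of -2.32 between the injured groups (SE 0.26, adjusted p = 5.7e-04). The members together had 0.660 to 1.80 reads per read of Ptprc in injured Ctrl and 11.0 to 15.6 in injured PT-KO, against 0.235 ± 0.0410 in Ctrl and 0.232 ± 0.0933 in PT-KO.

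**Figure D3:**
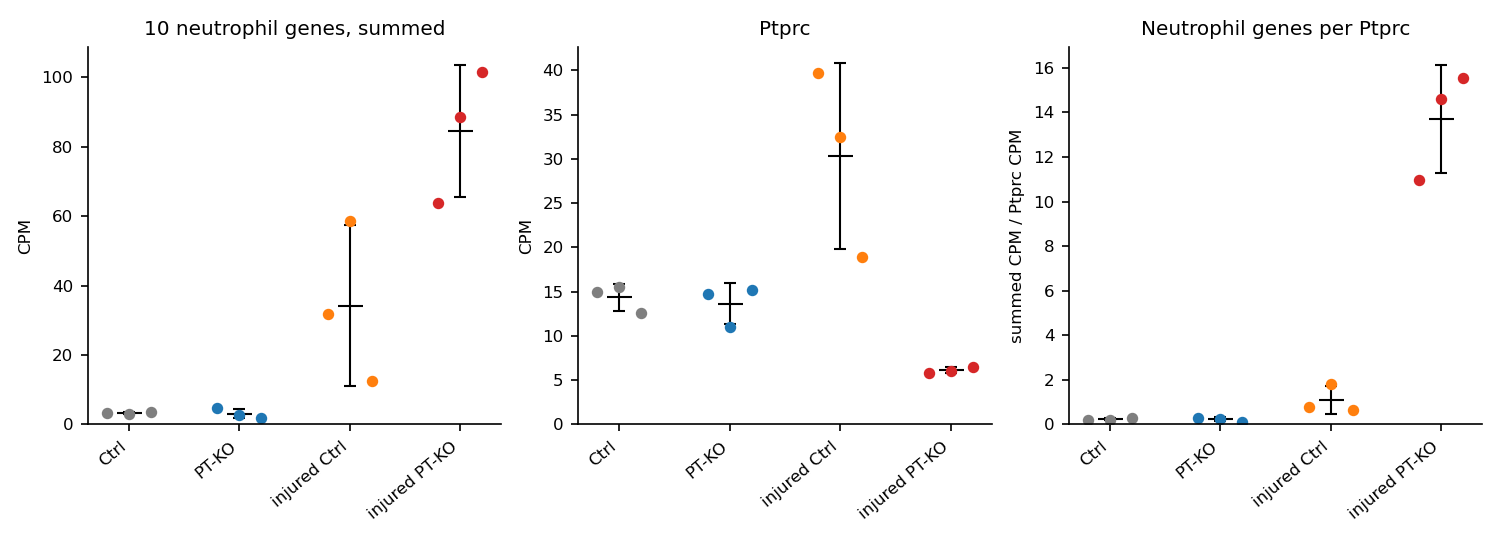
Summed CPM of the 10 neutrophil genes (left), CPM of Ptprc (middle) and their ratio (right) in each of the 12 libraries, with the mean ± SD of each group of 3 in black and all axes starting at 0. The neutrophil sum was highest in injured PT-KO while Ptprc was lowest there, at 5.82 to 6.51 CPM, so that the ratio reached 11.0 to 15.6.

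Other lists of neutrophil genes did not follow the members as a block. Of 17 other granule and precursor genes, 7 were tested in injured PT-KO against injured Ctrl, of which 1 was higher, 4 were lower and 2 did not pass (median log2 fold change -0.97, against -0.0049 over all genes tested, of which 24.4% were lower). Lyz2, lysozyme, was lower by a log2 fold change of -3.80 (adjusted p = 3.6e-04), and Cybb, a subunit of the NADPH oxidase, by -3.44 (adjusted p = 3.5e-04), although macrophages also express both. Chil3, a chitinase-like protein of neutrophil granules and of macrophages, had -0.40 (adjusted p = 0.31). The gene that was higher, Ngp, encodes neutrophilic granule protein and is named after its values were seen, with 0.174 CPM in injured Ctrl and 2.13 CPM in injured PT-KO (log2 fold change 3.68, adjusted p = 0.0038). Ctsg, Ms4a3 and Fcnb, primary granule and precursor genes of the marrow, had no read in any library of either injured group, and Mpo and Elane each had reads in 1 of these 6 libraries. Prtn3, the primary granule gene of proteinase 3, had reads in all 6, at 0.759, 0.209 and 0.126 CPM in injured Ctrl and 0.171, 0.134 and 0.0645 CPM in injured PT-KO. I/R in Ctrl mice raised 5 of the 6 granule genes tested there, among them Chil3 (4.57, adjusted p = 0.0064) and Lyz2 (2.31, adjusted p = 0.0088), while I/R in PT-KO mice raised 2 and lowered 2 of 7, with Lyz2 at -1.36 (adjusted p = 3.2e-04). Over all genes, 11.4% were higher with I/R in Ctrl, and 32.9% were higher and 32.7% lower in PT-KO, so the PT-KO counts are near those shares. Between the injured groups, 2 granule genes in place of 4 were lower without injured Ctrl library 1 or injured PT-KO library 3 or 4.

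Among 24 other receptor and activation genes of mature neutrophils, 17 were tested between the injured groups, with 3 higher, 4 lower and 10 not passing (median -0.31), where 22.5% and 24.4% of all genes were higher and lower. Higher were Hdc, the histamine-forming decarboxylase, at 2.78 (adjusted p = 0.0055), G0s2, an inhibitor of triglyceride lipase, at 1.59 (adjusted p = 0.0040), and Il1r2, the interleukin-1 decoy receptor. Lower among the named genes was Itgb2, the CD18 integrin chain, at -1.83 (adjusted p = 0.0025), and Mxd1, a MAX-binding repressor, had -0.18 (adjusted p = 0.53). Hdc also had 65.4 and 36.5 CPM in Ctrl libraries 1 and 2, the sham libraries from females, against 0.388 CPM in Ctrl library 3. G0s2 was read in sham kidneys too, at 16.9 to 40.7 CPM in Ctrl and 25.2 to 55.3 CPM in PT-KO, against 11.5 to 26.3 CPM in injured Ctrl. I/R raised 8 of 14 of these genes in Ctrl and 8 of 16 in PT-KO, where 11.4% and 32.9% of all genes were higher, and lowered 2 and 1, where 7.97% and 32.7% of all genes were lower.

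Of 11 attractants and growth factors of neutrophils, 7 were tested between the injured groups and 2 were higher, none was lower and 5 did not pass (median 1.23), where 22.5% of all genes were higher, so the share is near that of all genes. Cxcl2, a ligand of CXCR2, was at 2.36 ± 1.50 CPM in injured Ctrl and 10.4 ± 5.49 CPM in injured PT-KO, a log2 fold change of 2.14 (SE 0.55, adjusted p = 0.014). Cxcl1, another ligand of CXCR2, was at 59.2 ± 35.4 and 65.6 ± 21.6 CPM (0.15, SE 0.49, adjusted p = 0.83), and Cxcl5 had 1.23 (SE 0.59, adjusted p = 0.12). Cxcl3, the other gene that passed, is named after its values were seen (3.14, adjusted p = 0.014). Lta4h, which makes leukotriene B4, had -0.07 (adjusted p = 0.56). Without injured Ctrl library 1 or injured PT-KO library 4 none of the attractants passed, and without injured PT-KO library 3 only 1 did. Against sham, 4 of 5 rose in Ctrl and 5 of 6 in PT-KO, where 11.4% and 32.9% of all genes were higher, with Cxcl1 up by 6.05 (adjusted p = 0.0044) and 5.45 (adjusted p = 7.5e-07).

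The partners of the alarmins and of interleukin-1 beta were split. Of 5 genes for the receptors of S100A8/S100A9 and their adaptor, 4 were higher in injured PT-KO than in injured Ctrl and Ly96 did not pass (median 0.69), where 22.5% of all genes were higher. Cd14, the TLR4 co-receptor, went from 24.1 ± 11.4 to 146 ± 46.9 CPM (2.59, SE 0.39, adjusted p = 0.0017), and Tlr4 and the adaptor Myd88 had 0.54 (adjusted p = 0.048) and 0.69 (adjusted p = 0.023). Scaling by library totals left 2 of the 4, and leaving out 1 library left 2 or 3. Of 9 interleukin-1 pathway genes, 8 were tested, 2 were higher, 4 were lower and 2 did not pass (median -0.33), where 22.5% and 24.4% of all genes were higher and lower. Il1r2 was among the higher, at 1.22 ± 0.747 CPM in injured Ctrl and 8.43 ± 1.79 CPM in injured PT-KO (2.75, SE 0.42, adjusted p = 0.0018), and Pycard, the inflammasome adaptor ASC, among the lower (-2.10, adjusted p = 0.0037). Without injured Ctrl library 1 or injured PT-KO library 3 or 4, 2 interleukin-1 genes in place of 4 were lower. The signalling receptor Il1r1 and its co-receptor Il1rap had 0.36 (adjusted p = 0.064) and 0.42 (adjusted p = 0.065). I/R raised 2 of 5 receptor genes and 3 of 7 interleukin-1 genes in Ctrl, and raised 4 of 5 and 4 of 8 in PT-KO, where it lowered 1 interleukin-1 gene. Over all genes, 11.4% and 32.9% were higher. With 1 library left out, the I/R comparison in Ctrl mice gave 1 to 3 receptor genes, 2 to 4 interleukin-1 genes, 2 to 5 granule genes, 1 to 5 attractants and 2 to 10 of the other receptor and activation genes as higher (0 to 2 of the last were lower). Leaving out any library but injured Ctrl library 4 reduced each of these counts of higher genes, and without Ctrl library 1 each was at the low end of its range, as calls over all genes also fell.

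Endothelial adhesion genes let neutrophils leave the vessel. Of 7, 2 were lower and 5 did not pass between the injured groups (median 0.17), where 24.4% of all genes were lower, so the share is near that of all genes. Lower were Vcam1, which fell from 28.1 ± 11.1 to 11.0 ± 1.63 CPM (-1.35, adjusted p = 0.0081), and Icam2, named after its values were seen, which went from 6.17 ± 0.727 to 2.46 ± 0.682 CPM (-1.34, adjusted p = 0.0039). Among those that did not pass were Icam1 at -0.24 (adjusted p = 0.45), Pecam1 at 0.18 (adjusted p = 0.16) and Esam at 0.17 (adjusted p = 0.24). Icam1 rose with I/R in both genotypes, by 1.99 in Ctrl (adjusted p = 0.0074) and 1.54 in PT-KO (adjusted p = 3.7e-06).

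**Figure D4:**
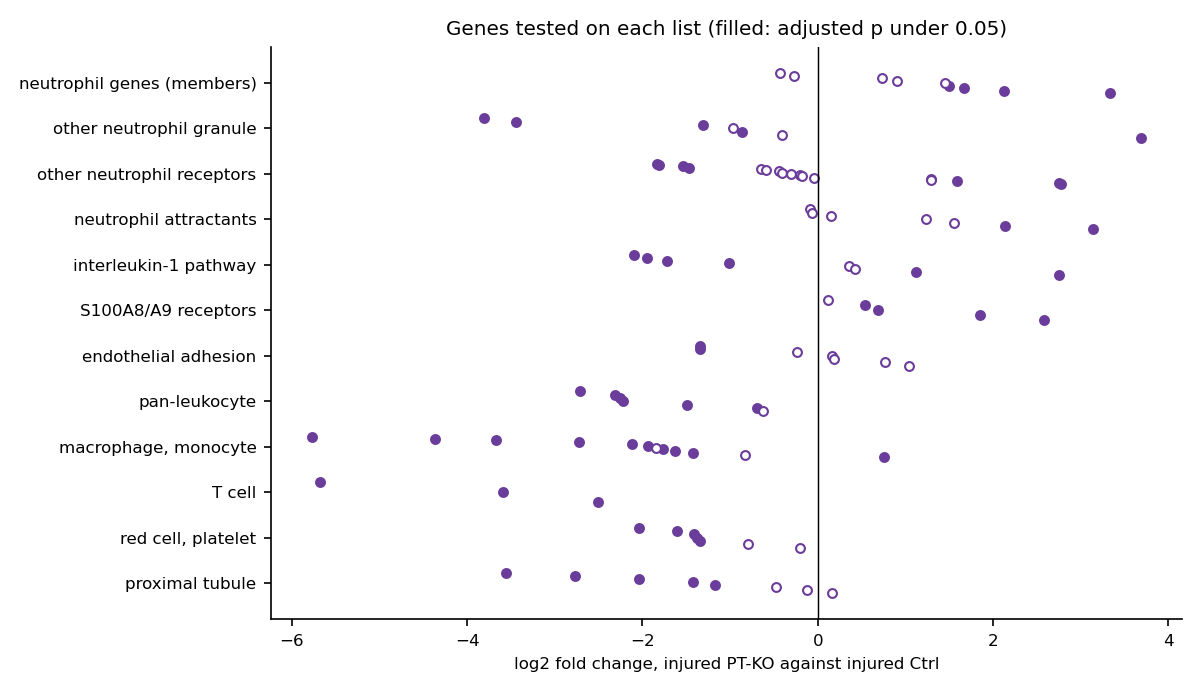
Log2 fold change in injured PT-KO against injured Ctrl (horizontal axis) of every gene tested on 12 lists (rows), filled where the adjusted p was under 0.05 and open otherwise. Neutrophil members, attractants and S100A8/A9 receptors lie mostly to the right of 0, and pan-leukocyte, macrophage, T cell and red cell lists mostly to the left.

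Markers of other leukocytes moved with the genotype, and in the opposite direction to the 4 members called. Between the injured groups 24.4% of all genes were lower and 22.5% higher, the shares against which the counts that follow stand. Of 7 pan-leukocyte genes, 6 were lower in injured PT-KO than in injured Ctrl and none was higher (median -2.22), with a summed level of 130.5 to 248 CPM in injured Ctrl and 54.2 to 56.7 CPM in injured PT-KO. Lcp1, an actin bundler of leukocytes, had -2.22 (adjusted p = 2.5e-04), Laptm5 -1.50 (adjusted p = 0.0022) and Arhgdib -0.69 (adjusted p = 0.018). Of 12 macrophage and monocyte markers, 9 were lower and 1 was higher (median -1.89), with sums of 129.7 to 224 CPM in injured Ctrl and 61.6 to 71.2 CPM in injured PT-KO and no marker at 0 in any group as a whole. C1qa (-1.63, adjusted p = 0.0015), C1qb (-1.76, adjusted p = 0.0026) and the colony-stimulating factor receptor Csf1r (-1.42, adjusted p = 0.0017) were lower, and Cd68, a lysosomal marker, was higher (0.76, adjusted p = 0.012). All 3 T cell markers with enough reads, of 8, were lower (8 without injured Ctrl library 4, 6 without injured PT-KO library 2 or 4), Cd8a (-5.68, adjusted p = 6.2e-04), Trbc2 (-3.59, adjusted p = 0.0039) and Cd4 (-2.51, adjusted p = 0.0032), with Cd3g at 1.42 CPM in injured Ctrl and 0.0297 CPM in injured PT-KO, sums of 6.13 to 17.5 CPM against 0.428 to 1.10 CPM and Cd2 at 0 in injured PT-KO. The 3 T cell markers tested had at most 0.258 CPM in any injured PT-KO library. They passed the read filter through injured Ctrl, so their direction was set in advance. Without injured Ctrl library 4 more genes passed the filter, 15716 in place of 15281. B cell markers summed to 1.20 to 3.03 CPM in injured Ctrl and to 0 to 0.401 CPM in injured PT-KO, with none of 5 tested, Cd79a, Cd79b and Ms4a1 having mean levels of 0.407 to 0.652 CPM in the former and 0.0297 to 0.0445 CPM in the latter. Of 8 proximal tubule markers 5 were lower, among them Slc34a1 (-1.17, adjusted p = 0.0496), Lrp2 (-1.42, adjusted p = 0.0042) and Cubn (-2.04, adjusted p = 4.7e-04), Slc27a2 had 0.16 (adjusted p = 0.39), and their sum was 5543 to 10664 CPM in injured Ctrl and 4510 to 5223 CPM in injured PT-KO. The part that this shift in the other cells has in the levels of the neutrophil genes was not tested.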

How the data were processed

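RNA from kidney cortex (TRIzol, Illumina sequencing) of 12 libraries was analysed from 1 deposited table, which holds raw counts of reads for each gene. Per the submitters' processing notes, the authors aligned reads with HISAT2 2.0.4 to mm10, and the counting program, annotation and strand setting are not given in the sources used here. No normalization had been applied. Groups were taken from the GEO labels.

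Counts were tested with edgeR 4.0.16 in R 4.3.3 (filterByExpr, TMM, glmQLFit and glmQLFTest) on the 6 libraries of each comparison, or on all 12 for the interaction. Benjamini–Hochberg adjustment covered all genes tested, and an adjusted p under 0.05 was called. The SE is the log2 fold change divided by the square root of F. Folds of members with 3 or fewer sham reads were taken from the reads themselves, as a ratio with an exact Clopper-Pearson interval (95%) that covers counting error only, or, with 0 sham reads, against a floor of 3 reads over the group, with no interval. Alternatives were DESeq2 1.42.0, library totals, no read filter, 1 fit to all libraries, sex as a covariate, the replicate number as a block and each library left out. The scripts were tested on simulated data. Positions and exon lengths follow GENCODE for GRCm38, and promoters RefSeq.

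The 10 members and 13 further lists (128 genes: neutrophil granule, receptor and attractant genes, adhesion, interleukin-1, S100A8/S100A9 receptor, pan-leukocyte, macrophage, T cell, B cell, eosinophil and mast cell, red cell and platelet, and proximal tubule genes) were chosen with earlier results of these data known. From each list the 4 or fewer genes with the highest mean CPM were named, beside Ptprc, Gfer, Havcr1 and Lcn2. Ngp, Cxcl3, Icam2, Ctsg, Ms4a3, Fcnb, Mpo, Elane, Prtn3 and Cd2 were named after their values were seen. The values of 2 genes that this rule would name are not reported here.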

Additional observations from a re-analysis of the deposited data

Results flagged for a closer look

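Retnlg was singled out because the effect of I/R on it differed between the genotypes in a test of that difference. The knockout by I/R interaction was 4.76 on the log2 scale (SE 0.88, adjusted p = 0.0022 by the edgeR quasi-likelihood test over 16168 genes). I/R moved Retnlg by 2.17 in Ctrl mice and by 6.91 in PT-KO mice, and all 3 injured PT-KO libraries lay above all 3 injured Ctrl libraries. With each of the 12 libraries left out in turn the interaction ranged from 4.23 to 5.48 and passed each time. Its sham level rests on 15 reads in Ctrl and 5 reads in PT-KO, and 2 of the 3 Ctrl libraries came from female mice. The part of sex or of the depth of injury in this difference was not tested beyond the fit with sex as a covariate, where the interaction also passed.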

How the results depend on the processing

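Over the alternatives, 55 repeated fold changes of members in injured Ctrl against Ctrl kept their side of the threshold, 23 lost and 6 gained a call. In injured PT-KO against PT-KO 98 kept it and 1 lost it, and between the injured groups 80 kept it with the same sign, 2 changed sign without passing, 12 lost and 5 gained a call. The same-numbered libraries are not known to be paired (12 such pairs, correlation of residuals -0.19 to 0.18, median -0.022). With the replicate block, 1 member in place of 4 passed in injured PT-KO against injured Ctrl (1683 in place of 7169 genes), 8 in place of 9 in injured PT-KO against PT-KO, and the number was unchanged in the other comparisons. Leaving out 1 library gave 1 to 9 members in injured Ctrl against Ctrl (379 to 4061 genes in place of 3019), 9 to 9 in injured PT-KO against PT-KO, 1 to 6 in injured PT-KO against injured Ctrl, 0 to 0 in PT-KO against Ctrl (up to 1930 genes, without Ctrl library 3) and 1 to 1 in the interaction. Log2 values that changed sign were Csf3r 0.39 and Il1b 0.25 in injured PT-KO against injured Ctrl without injured Ctrl library 2 (-0.62 to 0.39 and -0.87 to 0.25 over all libraries left out), Il1b 0.12 in PT-KO against Ctrl with sex as a covariate, and in the interaction Cxcr2 -0.12 and Csf3r -0.064 with sex, and Csf3r (-0.25 to 0.77) and Il1b (-0.65 to 0.48) with 1 library left out. The interactions of Mmp8 (-0.22 to 2.13) and Clec4d (-1.80 to 2.76) also changed sign with 1 library left out. They rest on groups with 3 reads or fewer and are therefore uncertain. None of these passed in either sign, and the cause was not tested. Spearman's in place of Pearson's correlation shared 0 of the 10 genes most like the members. The fit to all libraries called 4938 genes in injured Ctrl against Ctrl, PT-KO against Ctrl gave 458 with DESeq2, 388 with no filter, 1 with library totals and 1378 with the block in place of 0, and the interaction gave 3215 with the block and 3233 with sex in place of 4953. Library totals moved the median of all genes to 0.11 in injured Ctrl against Ctrl, where calls split 2346 higher and 766 lower in place of 1778 and 1241. Most members had under 30 reads in all sham libraries of a group, which limits their fold changes.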

Other observations

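By Pearson's correlation, none of the 10 genes whose pattern over the 12 libraries was most like that of the neutrophil members is a neutrophil marker on the lists used here. Likeness was Pearson's r with the mean over the 10 members of log2(CPM + 0.5), as a description with no test, and libraries of a group share their treatment. The search covered 16141 genes that passed the read filter over the 12 libraries and left out the members themselves. Neutrophil genes with few reads did not enter it, so the absence of neutrophil markers was set in part by the search. The 10 closest were Tpm3 (r = 0.996), Fosl2 and Actb (both 0.995), Lmna (0.994), Vasp and Klf6 (both 0.993), Gdf15, Mvp and Actn1 (each 0.992) and Adamts4 (0.991). They include genes of the actin cytoskeleton (Tpm3, Actb, Vasp, Actn1), transcription factors (Fosl2, Klf6) and the stress cytokine Gdf15. Klf6, for example, had 40.3 CPM in Ctrl, 34.3 in PT-KO, 169 in injured Ctrl and 415 in injured PT-KO. Spearman's rho gave 10 other genes, led by Rhbdf2 (rho = 0.986), Plcd1 (0.979), Trip6 and Mir17hg (both 0.972), and shared 0 with the first set, so which genes are closest depends on the measure. Tpm3 had a rho of 0.944. Among the members, r with the mean of the other 9 ranged from 0.798 for Il1b to 0.984 for S100a8.

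Granulocytes of other kinds were scarcely read. Of 8 eosinophil, basophil and mast cell markers none had enough reads for any comparison, and their sum was at most 0.402 CPM in a library, with Siglecf, Prg2, Ccr3 and Cpa3 each under 0.11 CPM in every group mean. Red cell and platelet markers were also lower in injured PT-KO than in injured Ctrl, with 5 of 7 tested passing and none higher, where 24.4% of all genes were lower (3 without injured PT-KO library 3 or 4). Hbb-bs had a log2 fold change of -1.60 (adjusted p = 0.0069), Alas2 -2.04 (adjusted p = 0.0051), Hba-a1 -1.35 (adjusted p = 0.0065) and Hbb-bt -1.42 (adjusted p = 0.023). Their sum was 91.8 to 222 CPM in injured Ctrl and 47.6 to 54.6 CPM in injured PT-KO, and was thus lower in the group in which S100a8, S100a9, Retnlg and Mmp8 were higher. Globin genes share near-identical sequence, and reads may be split among them.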
